A study of Mus musculus with 4 samples.

Results

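Imprinted genes are transcribed mainly from the chromosome inherited from 1 parent. A list of 39 such genes was followed in mouse embryonic fibroblasts (MEFs) that lack cyclin G2 or both cyclin G1 and cyclin G2. The list came from textbook knowledge but was drawn up with earlier results of these data known. Counts of its genes set beside all gene names are therefore description only. Members were the array's gene names that equal 1 of the 39 symbols. Of these, 38 were found, on 68 probes, among 31806 gene names on 39429 probes; Rian was not found by name and was left out. The arrays hold 4 samples of total RNA from MEFs on the C57BL/6J background, prepared from mid-gestation embryos and grown in log phase without DNA damage, 1 array per labelled group: CycG2-/- (G2KO), its CycG2+/+ wild type (G2WT), CycG1-/- CycG2-/- (DKO) and its CycG1+/+ CycG2+/+ wild type (DKOWT). The knockouts are germ-line alleles, present in every cell of a culture. The labels do not say how many embryos went into a culture, their sex or the passage, and each group is 1 array. Both control arrays are labelled wild type but differ widely in these genes, and they would leave 1 residual degree of freedom, so ratios of 1 array to 1 array are given with no test. The question was which transcripts differ in abundance when CycG2, or both cyclins, are missing.

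As background, many imprinted genes lie near a control region whose DNA methylation was set in the egg or the sperm. This methylation differs between the 2 parental copies, and 1 copy of the gene is mainly silent, which need not be the methylated one. Many imprinted genes lie in clusters, often with a long non-coding RNA such as H19, Meg3, Kcnq1ot1 or Airn whose own transcription is tied to the control region. Several are known regulators of fetal growth: many paternally expressed genes such as Igf2 favour growth, and maternally expressed ones such as Cdkn1c, Igf2r and Grb10 restrain it. Many are abundant in embryonic mesenchyme and decline after birth. These arrays measured the total RNA of both parental copies, and methylation and the parental origin of the RNA were not measured. Whether each listed gene was expressed from 1 copy in these cells is therefore not known.

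Several facts about the arrays bear on every value. A level is given as the probe's signal over the 75th percentile of its array, and a probe that is not well above background is called dim; the lowest signal well above background lay between 0.0066 and 0.0102 times the 75th percentile. Ccng1, the gene of cyclin G1, was dim on DKO and 1.66 on DKOWT, while its level was 1.98 on G2KO and 9.45 on G2WT. Ccng2 was well above background on all 4 arrays, between 0.0619 and 0.104, and whether its probe lies outside the deleted part is not given, so it does not check the G2KO label. The study lists En2, Foxa2, Sox2 and Sox6 as up-regulated in G2KO MEFs. Here En2 had a level of 0.026 on the array labelled G2KO and 14.8 on the array labelled G2WT. The latter array also had Foxa2, Sox6 and Sox2 well above background, while the former had all 3 dim, so directions in this comparison oppose those of the study and rest on the labels. Xist, the RNA of the inactive X chromosome, was well above background on G2WT alone (1.13), where Uty, Ddx3y and Eif2s3y of the Y chromosome were dim. On the other 3 arrays this was the other way round. The study lists Xist as up-regulated in G2KO MEFs and attributes this to their female origin, so Xist too runs opposite to the study here.

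The fibroblast label was checked against 12 fibroblast markers, of which 12 were well above background on G2KO, DKO and DKOWT and 10 on G2WT. Col1a1, Col1a2, Vim and Fn1 were high on all 4 arrays. Pdgfra, a receptor of mesenchymal cells, was at 1.75 on G2KO and 5.22 on DKOWT, at 0.0296 on DKO, and dim on G2WT. The study lists Pdgfra as down-regulated in G2KO MEFs, opposite to the direction as labelled here. Postn, a matrix protein, was at 10.9 on G2KO, 0.566 on G2WT, 0.116 on DKO and 21.6 on DKOWT. Pdgfra and Postn were thus low on both DKO and G2WT, but other markers differed. Pdgfrb was at 8.04 on G2KO, 5.44 on G2WT, 0.957 on DKO and 12.6 on DKOWT, and Col3a1 at 24.4, 1.77, 8.99 and 30. Dcn, also on the list, was at 49 on DKO and 2.95 on DKOWT. Of the 12 markers, 4 were at least 4-fold lower and 1, Dcn, was higher on DKO than on DKOWT (8.07% of all gene names in both directions). For G2KO to G2WT, 5 were higher and 0 lower (5.73%). For DKOWT to G2WT, 6 were higher and 0 lower (7.39%). Of 10 mesothelial markers, 10 were well above background on DKO, 5 on G2KO, 4 on G2WT and 3 on DKOWT. Their summed level was 149 on DKO, of which Msln alone gave 100, against 0.673 to 1.59 on the other arrays. Sums over 7 neural progenitor markers were 30.6 on G2WT, of which Nes alone gave 28, and 1.46 to 2.21 elsewhere. For 7 further marker lists, summed levels on the 4 arrays were 9.25 to 19.1 for neurons, 0.963 to 13.7 for skeletal muscle (lowest on DKO, highest on G2WT), 4.28 to 11.1 for trophoblast and 0.355 to 8 for chondrocytes (lowest on DKO, highest on DKOWT). Endothelial markers summed to 3.08 to 4.44, macrophage markers to 0.599 to 0.781 and markers of yolk sac or liver endoderm to 0.0319 to 0.108. The part that these markers have in the results below was not tested. In bulk RNA, fewer cells of a type and less RNA per cell cannot be told apart.

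Probes for the non-coding RNAs H19, Meg3 and Mirg are shown because those RNAs were at least 4-fold lower on DKO than on DKOWT and because the probes of H19 disagree. Each is the 60-base sequence of the array's design, 5′ to 3′ in the sense of the RNA, with its mm9 position. The labelled target was made from an oligo-dT primer and is antisense, so each probe reads 1 strand.
H19, chr7:149761492-149761551, minus strand, near the 3′ end: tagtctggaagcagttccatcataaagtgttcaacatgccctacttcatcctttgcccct
H19, chr7:149762417-149762476, minus strand, further 5′: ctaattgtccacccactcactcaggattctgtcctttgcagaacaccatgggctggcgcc
Meg3, chr12:110809678-110809737, plus strand: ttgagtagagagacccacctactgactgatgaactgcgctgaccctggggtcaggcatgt
Mirg, chr12:110987569-110987628, plus strand: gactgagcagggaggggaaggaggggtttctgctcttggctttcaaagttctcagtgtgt
The probe of H19 that is nearer the 3′ end read levels of 0.0186 to 4.01, whereas the other stayed between 0.0173 and 0.0245 on all 4 arrays, close to the lowest signal above background, with a DKO to DKOWT log2 ratio of 0.12. Values of H19 below are those of the first probe.

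Promoters are shown for Mest, Plagl1, Meg3 and Peg3, which are among the genes that differed widely between arrays and had a window in the RefSeq table (GRCm38.p6, 250 bases before to 50 after the start). Capitals mark TGCCGC or its complement GCGGCA, the bases that ZFP57 binds when the CpG in it is methylated. ZFP57 is a zinc finger protein that helps to keep imprints after fertilisation.
Mest, chr6:30737800-30738099, plus strand: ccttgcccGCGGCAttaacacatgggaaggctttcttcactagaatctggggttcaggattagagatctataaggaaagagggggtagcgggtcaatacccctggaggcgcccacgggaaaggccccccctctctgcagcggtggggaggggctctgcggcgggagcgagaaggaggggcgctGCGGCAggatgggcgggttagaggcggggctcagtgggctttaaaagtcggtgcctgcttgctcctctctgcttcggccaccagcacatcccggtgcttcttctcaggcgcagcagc
Plagl1, chr10:13090582-13090881, plus strand: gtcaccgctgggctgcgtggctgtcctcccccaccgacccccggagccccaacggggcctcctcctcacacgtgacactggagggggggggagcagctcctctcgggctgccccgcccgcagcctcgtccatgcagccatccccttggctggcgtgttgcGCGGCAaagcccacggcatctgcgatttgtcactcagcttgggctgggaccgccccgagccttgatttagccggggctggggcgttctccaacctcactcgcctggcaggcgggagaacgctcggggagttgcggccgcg
Meg3, chr12:109540746-109541045, plus strand: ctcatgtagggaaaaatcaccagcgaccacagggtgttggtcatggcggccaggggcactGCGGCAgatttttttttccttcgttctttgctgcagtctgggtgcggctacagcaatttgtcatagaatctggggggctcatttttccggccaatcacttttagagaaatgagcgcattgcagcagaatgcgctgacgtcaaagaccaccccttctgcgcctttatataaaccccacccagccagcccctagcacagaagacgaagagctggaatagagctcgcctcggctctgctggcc
Peg3, chr7:6730370-6730669, minus strand: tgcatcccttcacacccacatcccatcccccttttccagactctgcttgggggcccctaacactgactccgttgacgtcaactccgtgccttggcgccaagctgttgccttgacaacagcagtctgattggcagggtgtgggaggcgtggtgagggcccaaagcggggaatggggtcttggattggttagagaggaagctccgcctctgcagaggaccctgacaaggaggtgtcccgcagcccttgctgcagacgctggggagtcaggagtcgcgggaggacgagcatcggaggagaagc
The Mest window shown holds 2 such motifs, the Plagl1 and Meg3 windows shown 1 each, and the Peg3 window none. Other windows of Mest (from chr6:30733256) and Meg3 (from chr12:109545148) hold none. Mest windows from chr6:30737800 and chr6:30737803 overlap and are counted separately below. Over both strands, TGCCGC was in 10 of 51 windows of the imprinted genes (19.6%) and in 11.6% of all 32851 windows. CCCTC, the core of the CTCF motif, was searched on both strands too and was in 78.4% of the former and 66% of the latter. The median number of CpGs was 11 in windows of imprinted genes and 7 in all windows. The Peg3 window overlaps that of Usp29 on the other strand (chr7:6730333-6730632), since both genes start from a shared promoter. Windows were in the table for 31 of the 38 genes. The windows of Dlk1 and Slc38a4 hold no TGCCGC.

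Differences of imprinted genes between DKO and DKOWT were wide in both directions. Of 38 genes, 34 were well above background on at least 1 of these arrays and have a ratio. Levels on DKO were at least 4-fold lower for 9 genes (Plagl1, Meg3, Slc38a4, H19, Dlk1, Cdkn1c, Mest, Igf2 and Mirg) and at least 4-fold higher for 4 (Peg3, Ddc, Ndn and Ppp1r9a), which is 13 of 34 (38.2%). Over all 22881 gene names with a ratio, 8.07% differed at least 4-fold, 4.04% higher and 4.03% lower on DKO. The median log2 ratio was -0.29 over the imprinted genes and 0.03 over all gene names, so the difference lay in the width and not in the middle of the distribution. The nearest gene outside the threshold was Peg10, 3.99-fold lower on DKO, and the nearest inside it was Ppp1r9a, 7-fold higher. The median SD of the log2 signal between repeated spots of a probe was 0.0581 to 0.0926 on the 4 arrays. The ratios of at least 4-fold that are not bounds are several times their spot error. This error is given beside many of those described below and covers measurement on the array alone. Their size depended on the background correction: with normexp, which pulls low signals together, log2 ratios were -7.21 for Plagl1, -5.97 for Meg3, -5.83 for Dlk1, -5.81 for Slc38a4, -5.76 for H19, -3.49 for Mest, -3.28 for Cdkn1c and 4.19 for Peg3, while Mirg (-1.82), Igf2 (-1.64) and Ddc (1.43) were below 4-fold.

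The arrays labelled wild type differed from each other almost as often. Between DKOWT and G2WT, 12 of 34 imprinted genes (35.3%) were at least 4-fold apart, 8 higher and 4 lower on DKOWT, against 7.39% of all gene names (4.63% higher, 2.76% lower). Igf2, Dlk1, Meg3, Cdkn1c, Mest, Plagl1, Grb10 and Slc38a4 were higher on DKOWT, and Zim1, Ndn, Snrpn and Ppp1r9a were higher on G2WT. The cultures labelled wild type were thus far apart in these genes. This rests on the label of G2WT. With the labels of the G2KO comparison exchanged, an alternative chosen after seeing the data, 2 of 34 were at least 4-fold apart, against 2.3% of all gene names. Counts set against the ratio between the wild types, here and below, rest on that label too. For 24 of 33 imprinted genes with both ratios (72.7%), the DKO to DKOWT ratio was larger in size than the ratio between the wild types, compared with 46.5% of all gene names.

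Between the array labelled G2KO and G2WT, 12 of 35 imprinted genes (34.3%) were at least 4-fold apart, with 8 higher (Cdkn1c, Mest, Slc38a4, Dlk1, Grb10, Plagl1, Mirg and Igf2) and 4 lower (Ndn, Ppp1r9a, Zim1 and Snrpn) on the array labelled G2KO. Of all gene names with a ratio, 5.73% differed this much, 3.71% higher and 2.02% lower. The median log2 ratio was 0.07 over the imprinted genes and -0.17 over all gene names. In 14 of 34 imprinted genes (41.2%), this ratio was larger in size than the one between the wild types, against 47.1% of all gene names. When the array labelled G2KO was set against DKOWT instead, only Dlk1 (log2 ratio -2.47) and Dio3 (-2.24) of 34 imprinted genes differed at least 4-fold, against 2.3% of all gene names. The comparisons share arrays and are therefore not independent of each other.

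**Figure D1:**
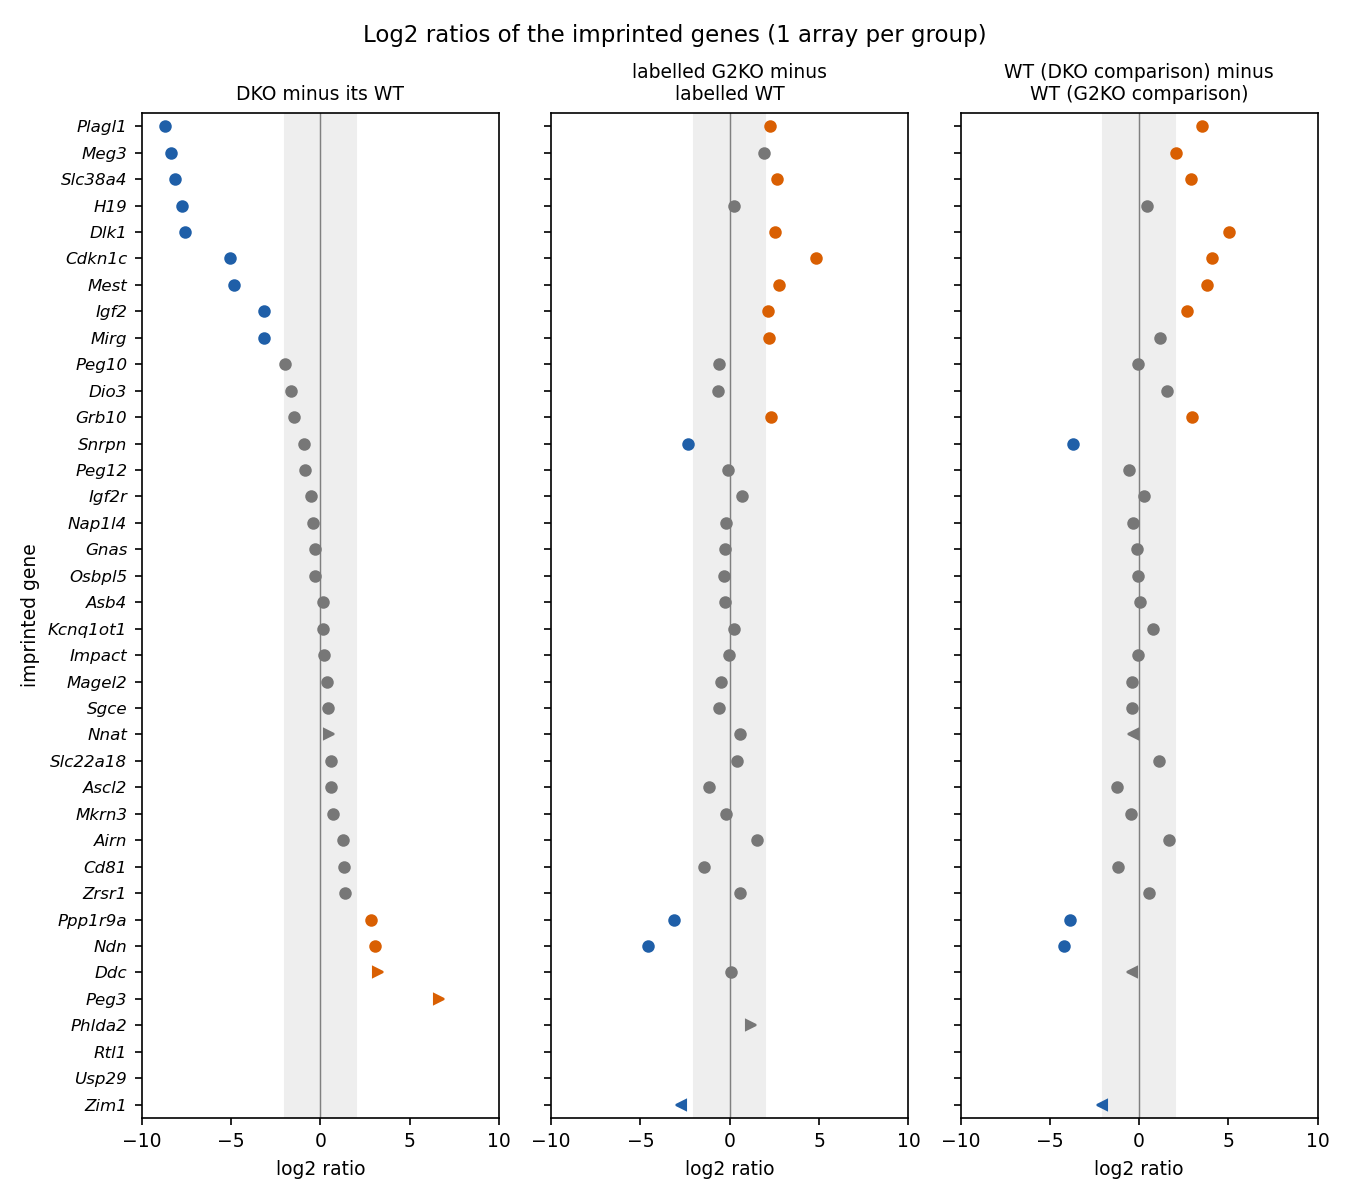
Log2 ratios (x axes) of the 38 imprinted genes (rows, ordered by the ratio in the left panel) for DKO minus its WT, G2KO minus G2WT as labelled, and DKOWT minus G2WT. Circles are ratios of 1 array to 1 array, triangles are bounds where 1 array was dim, rows without a symbol have no ratio, and the grey band spans less than 4-fold; 13, 12 and 12 genes lie outside it.

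Igf2, H19 and the genes that act on the IGF2 signal came first by role. Igf2, the fetal insulin-like growth factor, had a level of 0.0984 on G2KO, 0.0228 on G2WT, 0.0164 on DKO and 0.148 on DKOWT. It was low on DKO and G2WT alike and higher on G2KO and DKOWT, with a DKO to DKOWT log2 ratio of -3.18 ± 0.25 (error of the spots, as for all errors below), a G2KO to G2WT ratio of 2.11 ± 0.23 and a DKO to G2WT ratio of -0.47 ± 0.27. H19, the non-coding RNA next to Igf2 that shares its enhancers and comes from the other parental copy, was at 3.37, 2.91, 0.0186 and 4.01 on the same arrays. Only DKO was low for H19, at 215-fold below DKOWT (log2 ratio -7.75 ± 0.26), while the other 3 arrays lay within a log2 ratio of 0.46. The probes of H19 and Igf2 are 78.2 kb apart.

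Igf2r, the receptor that takes up and degrades IGF2, was at 5.26 on G2KO, 3.24 on G2WT, 2.66 on DKO and 3.91 on DKOWT, a span below 2-fold. Airn, the paternal RNA that overlaps Igf2r and silences it in cis, was at 2.04, 0.718, 5.66 and 2.31. Its level was highest on DKO, 2.45-fold above DKOWT and 7.87-fold above G2WT, and all 4 Airn probes were higher on DKO than on DKOWT (log2 ratios 1.03 to 1.88). Grb10, an adaptor that dampens insulin and IGF receptors, was at 1.09, 0.224, 0.621 and 1.73. It was low on G2WT only, 4.86-fold below G2KO and 7.75-fold below DKOWT, and 2.79-fold lower on DKO than on DKOWT. Gnas, the stimulatory G protein alpha subunit, was at 57.8, 68.4, 51 and 62.2 and differed by less than 2-fold between any arrays. A Gnas probe at chr2:174122337, upstream of the others, read 0.124 on DKOWT and 0.0157 to 0.0232 elsewhere.

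Across the Dlk1-Dio3 cluster of chromosome 12, both the paternally expressed protein gene Dlk1 and the maternally expressed non-coding RNAs were at their lowest on DKO. Dlk1, a membrane protein of the Notch ligand family that keeps precursor cells from differentiating, was at 0.639 on G2KO, 0.11 on G2WT, 0.0184 on DKO and 3.53 on DKOWT. It had a different level on each of the 4 arrays, with log2 ratios of -7.58 ± 0.24 for DKO to DKOWT, 2.54 ± 0.20 for G2KO to G2WT and 5.01 ± 0.20 between the wild types. Its other probe was dim on DKO and at least 95.4-fold lower there than on DKOWT.

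Meg3, a long non-coding RNA, was at 3.27 on G2KO, 0.858 on G2WT, 0.0109 on DKO and 3.57 on DKOWT. Its log2 ratio was -8.35 ± 0.31 for DKO to DKOWT and -6.30 ± 0.31 for DKO to G2WT, and only DKO was near the lowest signal above background. The other Meg3 probes gave -2.01 and, as a bound, -5.80. Mirg, the host RNA of many microRNAs at the far end of the same long transcript region, was at 0.465, 0.102, 0.0263 and 0.233. DKO was the lowest array for Mirg (log2 ratio -3.14 ± 0.23 against DKOWT), and its other probe gave a bound of -4.77. Dio3, the deiodinase that inactivates thyroid hormone, was at 0.00816, 0.013, 0.0121 and 0.0384, highest on DKOWT and close to background on the rest. Rtl1, a paternally expressed gene derived from a retrotransposon, was well above background on DKO only, at 0.0077, which is next to the lowest signal above background there. By position, RefSeq places 1 microRNA gene within the bounds of Meg3, 10 within those of Mirg and 15 within those of Rtl1. Position alone does not say which RNA hosts them, and mature microRNAs were not measured here.

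**Figure D2:**
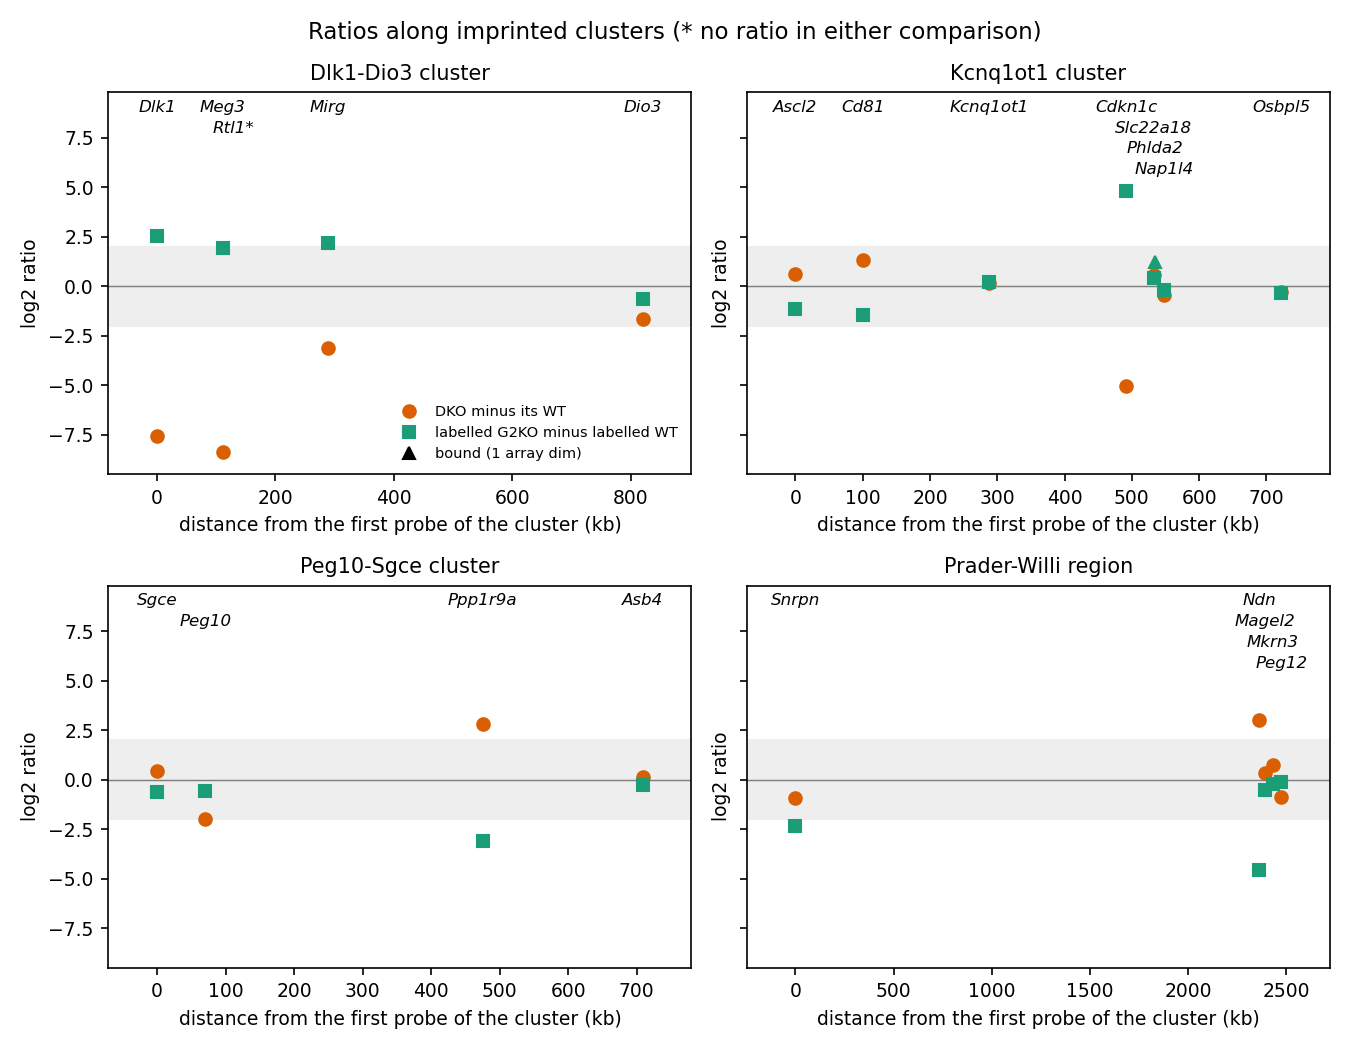
Log2 ratio (y axes) against distance from the first probe of the cluster in kb (x axes) for 4 imprinted clusters; circles are DKO minus its WT, squares are the array labelled G2KO minus the array labelled WT, triangles are bounds and the grey band spans less than 4-fold. In the Dlk1-Dio3 cluster Dlk1, Meg3 and Mirg are all low on DKO, and among the genes of the Kcnq1ot1 cluster with a ratio Cdkn1c is the one outside the band.

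In the Kcnq1ot1 cluster on chromosome 7, whose 8 genes span 722 kb, Cdkn1c was the gene with a ratio of at least 4-fold in the knockout comparisons. Cdkn1c, the CDK inhibitor p57Kip2, was at 0.792 on G2KO, 0.0283 on G2WT, 0.0145 on DKO and 0.482 on DKOWT. DKO and G2WT were low and G2KO and DKOWT were high: the log2 ratio was -5.05 ± 0.25 for DKO to DKOWT, 4.81 ± 0.22 for G2KO to G2WT and -0.96 ± 0.26 for DKO to G2WT. Kcnq1ot1, the paternal non-coding RNA that silences the cluster in cis, was at 0.282, 0.242, 0.468 and 0.418, with a DKO to DKOWT log2 ratio of 0.16 ± 0.20. Its other probe, at 0.0987, 0.077, 0.166 and 0.127, gave 0.39 ± 0.21. By these probes Kcnq1ot1 was 1.12-fold and 1.31-fold higher on DKO, where Cdkn1c was 33.2-fold lower.

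For 5 neighbours of Cdkn1c (Nap1l4, Osbpl5, Slc22a18, Ascl2 and Cd81), the ratios were below 4-fold in both knockout comparisons. Nap1l4, a histone chaperone, and Osbpl5, an oxysterol binding protein, had DKO to DKOWT log2 ratios of -0.43 and -0.29. Slc22a18, a transporter, had 0.57, and Ascl2, a bHLH factor of the placenta, had 0.60. Cd81, a tetraspanin, was at 21.6 on G2KO, 58.3 on G2WT, 63.2 on DKO and 25.7 on DKOWT. Here DKO and G2WT were the higher pair, with log2 ratios of 1.30 for DKO to DKOWT and -1.44 for G2KO to G2WT. Phlda2, which restrains placental growth, was dim on 3 arrays and at 0.0164 on G2KO, so it has no DKO to DKOWT ratio and only a bound of at least 2.29-fold for G2KO to G2WT.

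Among the 38 genes, Peg3 had the widest difference towards higher levels on DKO. Peg3, a large zinc finger protein expressed from the paternal copy, was at 1.02 on DKO and dim on G2KO, G2WT and DKOWT (signals of 0.00614, 0.00255 and 0.00335). It was at least 99.1-fold higher on DKO than on DKOWT and at least 142-fold higher than on G2WT, and its other probe was at least 14.7-fold higher than on DKOWT. Usp29, which shares the promoter printed above and is read from the other strand, was dim on all 4 arrays. Zim1, a zinc finger gene of the same cluster that is expressed from the maternal copy, was at 0.0433 on G2WT and dim on the rest, with a bound of 6.55-fold between G2WT and G2KO. Its other probe was dim throughout.

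Plagl1, Slc38a4 and Mest, which lie alone rather than in clusters with other members, were low on DKO. Plagl1, a zinc finger transcription factor that acts on other imprinted genes, was at 6.12 on G2KO, 1.28 on G2WT, 0.035 on DKO and 14.7 on DKOWT. The order was the same as for Dlk1 and Mest, and the log2 ratios were -8.71 ± 0.22 for DKO to DKOWT, -5.19 ± 0.22 for DKO to G2WT and 2.26 ± 0.20 for G2KO to G2WT. A second Plagl1 probe nearby gave -8.89, but the probes at chr10:12848421 and chr10:12848851 gave -0.09 and -1.05 with levels between 0.0615 and 0.212, so probes of this gene disagree, and the median over probes was 0.75 for G2KO to G2WT.

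Slc38a4, a sodium-coupled neutral amino acid transporter, was at 2.64 on G2KO, 0.427 on G2WT, 0.0113 on DKO and 3.14 on DKOWT. DKO was 279-fold below DKOWT and 37.9-fold below G2WT. Mest, a hydrolase-like protein of embryonic mesoderm, was at 0.407, 0.0606, 0.0304 and 0.859. G2WT was close to DKO for Mest (log2 ratio of DKO to G2WT -0.997 ± 0.23), while DKO to DKOWT gave -4.82 ± 0.22 on 10 spots, and its other probes -4.50 and, as a bound, -3.06.

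Impact, an inhibitor of the GCN2 kinase pathway, was at 4.94 on G2KO, 5.04 on G2WT, 5.52 on DKO and 4.83 on DKOWT, all within 1.14-fold of each other. Zrsr1, a splicing factor gene that arose by retrotransposition, was at 0.703, 0.479, 1.83 and 0.697 and thus highest on DKO (2.63-fold above DKOWT). Nnat, a small membrane proteolipid of neural tissue, was between 0.00616 and 0.0189 and dim on DKOWT.

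**Figure D3:**
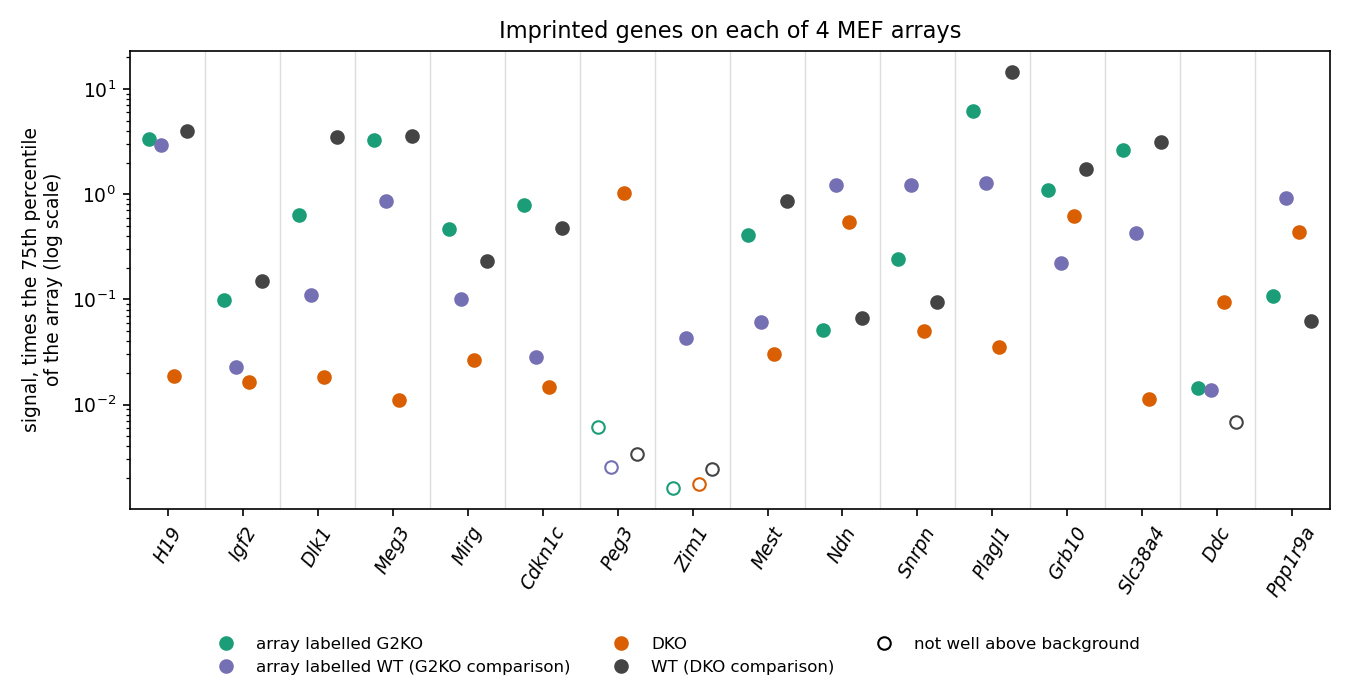
Signal over the 75th percentile of the array (y axis, log scale) for the 16 imprinted genes that differed at least 4-fold in a knockout comparison or between the WT arrays; each point is 1 array and open points are not well above background. DKO points lie lowest for H19, Dlk1, Meg3, Plagl1 and Slc38a4 and highest for Peg3 and Ddc, and DKO and G2WT lie together for Igf2, Cdkn1c and Mest.

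In the Peg10-Sgce cluster on chromosome 6, Ppp1r9a was the gene that differed at least 4-fold. Ppp1r9a, the actin-binding protein neurabin, was at 0.107 on G2KO, 0.917 on G2WT, 0.434 on DKO and 0.0621 on DKOWT. DKO and G2WT were the high pair, with log2 ratios of 2.81 ± 0.21 for DKO to DKOWT and -3.11 ± 0.20 for G2KO to G2WT, but DKO was lower than G2WT (-1.08 ± 0.20). Its other probe gave a bound of 0.87 for DKO to DKOWT, and the median over both was 1.84. Peg10, a retrotransposon-derived gene needed in the placenta, was at 0.0662, 0.0988, 0.0238 and 0.0949, lowest on DKO, and its other probe gave a log2 ratio of -1.75 against DKOWT. Sgce, epsilon-sarcoglycan, which starts beside Peg10 and runs the other way, was at 4.41, 6.73, 6.82 and 5.07. So the neighbours Peg10 and Sgce were 3.99-fold lower and 1.34-fold higher on DKO than on DKOWT. Asb4, a SOCS box protein, was between 0.0307 and 0.0407 on all arrays.

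In the Prader-Willi region on chromosome 7, Ndn was at least 4-fold different in both knockout comparisons and Snrpn in that of G2KO. Ndn, necdin, a growth suppressor of neurons and other differentiated cells, was at 0.0515 on G2KO, 1.22 on G2WT, 0.549 on DKO and 0.0671 on DKOWT. As with Ppp1r9a, DKO and G2WT were high and the others low: the log2 ratio was 3.03 ± 0.21 for DKO to DKOWT and -4.57 ± 0.21 for G2KO to G2WT, while DKO to G2WT was -1.16 ± 0.20. The direction on DKO for Ndn and Ppp1r9a thus turned with the wild-type array used. Snrpn, a protein of the spliceosome, was at 0.243, 1.23, 0.05 and 0.0942. It was high on G2WT only, 13-fold above DKOWT, and 1.89-fold lower on DKO than on DKOWT. Magel2, Mkrn3 and Peg12, the close neighbours of Ndn, had log2 ratios between -0.86 and 0.73 for DKO to DKOWT and between -0.51 and -0.12 for G2KO to G2WT.

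Ddc, the decarboxylase that makes dopamine and serotonin and lies next to Grb10 on chromosome 11, was at 0.0143 on G2KO, 0.0136 on G2WT and 0.0948 on DKO, and dim on DKOWT. It was at least 9.25-fold higher on DKO than on DKOWT and 6.94-fold higher than on G2WT, while its neighbour Grb10 was lower on DKO than on DKOWT. The other Ddc probe was at 0.0165 on DKO and gave a bound of 0.68 on the log2 scale, so the median over both probes (1.95) was below 4-fold.

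Genes were classed by the parental copy usually expressed, which was not measured here, and both classes held genes in either direction. Among 19 paternally expressed genes with a ratio for DKO to DKOWT, 2 were at least 4-fold higher and 5 lower, with a median log2 ratio of 0.16. Of 12 maternally expressed genes, 1 was higher and 4 were lower, with a median of -0.36. Over all gene names with this ratio, 4.04% were higher and 4.03% lower. For G2KO to G2WT, 5 of 18 paternally expressed genes were higher and 2 lower, and 2 of 14 maternally expressed genes were higher and 2 lower. The shares over all gene names were 3.71% higher and 2.02% lower.

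Set against all 3 other arrays, DKO stood apart for a few genes. H19, Dlk1, Meg3, Plagl1 and Slc38a4 were at least 4-fold lower on DKO than on each other array (5 of 34, background 1.3%), and Peg3 and Ddc were at least 4-fold higher than on each (2 of 34, background 2.69%). For Igf2, Cdkn1c and Mest, which were also low on DKO against DKOWT, G2WT was low too, with log2 ratios of DKO to G2WT of -0.47, -0.96 and -0.997. For Mirg, G2WT lay between, with a log2 ratio of -1.95 for DKO to G2WT and 1.20 for DKOWT to G2WT. Of 33 imprinted genes with a ratio in both knockout comparisons, 9 were at least 4-fold apart in opposite directions, 7 of them lower on DKO and higher on the array labelled G2KO and 2 (Ndn and Ppp1r9a) the reverse, and none was in the same direction. Of all 21553 gene names with both ratios, 1.88% differed at least 4-fold in opposite directions and 0.422% in the same direction. These directions rest on the doubted labels of the G2KO comparison: with those labels exchanged, the 9 genes are in the same direction and none is in opposite ones.

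**Figure D4:**
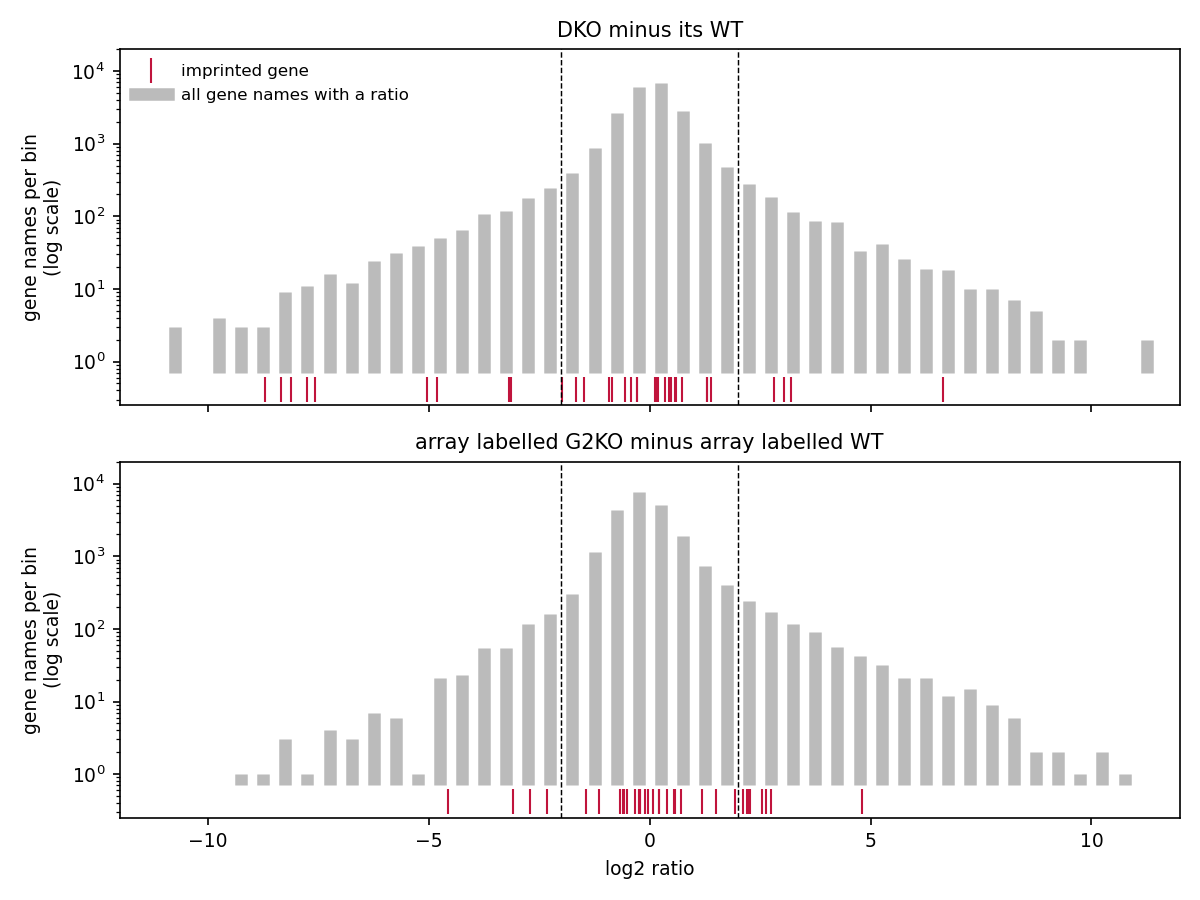
Number of gene names (y axes, log scale) by log2 ratio in bins (x axis) for DKO minus its WT and for the array labelled G2KO minus the array labelled WT; red marks are imprinted genes and dashed lines mark 4-fold. In the upper panel 9 marks lie beyond the lower line and 4 beyond the upper one, and in the lower panel 4 and 8.

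Variation over the 4 arrays was wide for imprinted genes. The 31 genes well above background on every array had a median range of 2.05 on the log2 scale, and 16 of them (51.6%) spanned at least 4-fold, while 10 spanned less than 2-fold. Of 19466 gene names well above background on every array, 11.7% spanned at least 4-fold, with a median of 0.80. The SD of log2 ratios over the 31 genes was 3.39 for DKO to DKOWT, 1.90 for G2KO to G2WT and 2.21 between the wild types. Between the array labelled G2KO and DKOWT it was 0.80, the smallest of the pairs, and over all probes well above background on every array this pair was the smallest too (0.535 against 0.859 to 1.14). DKO was the lowest array for 15 of the 31 genes (48.4%), compared with 31% of all gene names.

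A group of 15 imprinted genes often described as an imprinted gene network, which holds 13 of the members besides Dcn and Gatm, was counted as well. For DKO to DKOWT, 8 were at least 4-fold lower and 3 higher, against 8.07% of all gene names in both directions together, with a median log2 ratio of -3.18 (0.03 over all gene names); over the 13 members alone, 7 were lower and 2 higher. For G2KO to G2WT, 8 of 14 were higher and 1 lower as labelled, against 5.73% of all gene names. Dcn, the proteoglycan decorin, was at 0.757 on G2KO, 0.0722 on G2WT, 49 on DKO and 2.95 on DKOWT. Decorin thus was highest on DKO, opposite to most of the group. Gatm, which makes guanidinoacetate for creatine, was at 0.331, 0.0294 and 0.198 on G2KO, G2WT and DKOWT, and dim on DKO, where it was at least 27.1-fold lower than on DKOWT. 

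Outside the members, 38 of 40 further imprinted genes were found by name. For DKO to DKOWT, 2 of 28 with a ratio were at least 4-fold higher and 4 lower (21.4% against the 8.07% of all gene names), with a median log2 ratio of 0.13. The higher ones were Pon3 and Dcn, and the lower ones were Dlx5, Gatm, Begain and Peg13. Without Dcn and Gatm, already described with the network, 1 of 26 was higher and 3 were lower (15.4%). Pon3, a lactonase of the paraoxonase family next to Ppp1r9a, was at 5.3 on DKO and 0.012 to 0.0231 on the other arrays, 230-fold above DKOWT. Dlx5, a homeobox gene of bone and branchial arches, was dim on DKO and at least 23.8-fold lower there than on DKOWT (0.174). Like Peg10 and Asb4, both lie on proximal chromosome 6. For G2KO to G2WT as labelled, 5 of 29 (Cobl, Tfpi2, Dcn, Gatm and Dlx5) were higher and none lower by 4-fold. Without Dcn and Gatm, 3 of 27 were higher (11.1%, against 5.73% of all gene names).

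Factors that place or keep imprints were counted in the same way. Of 17 genes of DNA methylation, demethylation and imprint binding proteins, 15 had a ratio, and 1 (6.67%) was at least 4-fold different for DKO to DKOWT and none for G2KO to G2WT. With 15 genes, these counts are close to the background of 8.07% and 5.73%. That gene was Tet1, an enzyme that oxidises 5-methylcytosine, at 0.178 on G2KO, 0.055 on G2WT, 0.0668 on DKO and 0.392 on DKOWT. It was low on DKO and G2WT, with a log2 ratio of -2.55 for DKO to DKOWT. Dnmt1, the maintenance methyltransferase, was at 1.84, 1.64, 1.09 and 1.69, Uhrf1, its partner at replicating DNA, was at 5.26, 12, 4.07 and 4.75, and Zfp57 was at 0.333, 0.251, 0.695 and 0.372. Dnmt3b, a de novo methyltransferase, was lowest on DKO (0.0838 against 0.289 on DKOWT), 3.44-fold apart and short of the threshold.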

How the data were processed

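Total RNA of 4 MEF cultures was labelled with Cy3 and hybridised to 4 single-color Agilent mouse arrays on 1 slide, 1 per labelled group. The deposited files hold the signal intensity of each spot from Agilent's Feature Extraction software (10.7.3.1 per the file headers, 10.5.1.1 in the submitters' processing notes), corrected by the authors' software for background and spatial trends and not scaled between arrays; the deposited value table holds the same intensity (largest log2 difference 0). The study's methods describe dye-swapped arrays for G2KO MEFs, whereas the labels give single color.

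Control spots and outlier spots (107 to 140 per array) were left out. Signals were divided by the array's 75th percentile (signals of 1586 to 2234), taken to log2 and averaged over the spots of a probe. Between 65% and 72.2% of probes were well above background, and no spot of the imprinted genes was saturated. A ratio needed a probe well above background on at least 1 array. Where the other array was dim, its level was the higher of the probe's own signal and the lowest signal well above background, and the ratio is a bound (at least). Of several probes of a gene, the one brightest on average over the 4 arrays was used. Errors (±) of ratios combine the spot errors of Feature Extraction and hold no biological spread. The number of arrays limits the precision.

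Named were the 16 genes at least 4-fold apart in a comparison, with their neighbours by cluster and role. The members and all gene lists (parental class, cluster, network, other imprinted genes, factors that keep imprints, cell type markers) were chosen with earlier results of these data known. Alternatives were normexp (limma 3.58.1, R 4.3.3), quantile and median scaling, no scaling, other filters, thresholds, probes and WT arrays. Ratios were tested on simulated data. Python 3.11.15, numpy 2.4.6 and pandas 2.3.3 were used.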

Additional observations from a re-analysis of the deposited data

Results flagged for a closer look

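For 9 imprinted genes, the log2 ratio was at least 4-fold in opposite directions in the 2 knockout comparisons. The difference was not tested, since each group is 1 array. Of all gene names, 1.88% differed this much in opposite directions and 0.422% in the same direction. Both counts rest on the labels of the G2KO comparison: with those exchanged, the 9 genes are in the same direction. Lower on DKO than on DKOWT and higher on the array labelled G2KO than on G2WT were Igf2 (log2 ratios -3.18 and 2.11), Dlk1 (-7.58 and 2.54), Mirg (-3.14 and 2.19), Cdkn1c (-5.05 and 4.81), Mest (-4.82 and 2.75), Plagl1 (-8.71 and 2.26) and Slc38a4 (-8.12 and 2.63). Higher on DKO and lower on the array labelled G2KO were Ndn (3.03 and -4.57) and Ppp1r9a (2.81 and -3.11).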

How the results depend on the processing

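The counts of imprinted genes at least 4-fold apart and their median log2 ratios were recomputed under each alternative. With a 10-fold threshold, the count was 8 in place of 13 for DKO to DKOWT, 2 in place of 12 for G2KO to G2WT and 7 in place of 12 between the wild types. No share of all gene names at 10-fold is given, so the 10-fold counts cannot be set beside a background. For G2KO the wild-type array decided the count: 2 against DKOWT (2.3% of all gene names) and 2 against the mean of both wild types (no background given). With the labels of the G2KO comparison exchanged, an alternative chosen after seeing the data, the count between the wild types was 2, against the same 2.3% of all gene names. For the genes at least 4-fold apart, 255 values were computed over 7 alternatives of background, scaling, filter and probe: 0 changed sign, 26 moved by more than the SD between the wild types (16 of them under normexp, which pulls low signals together) and 240 stayed at least 4-fold apart. Those below 4-fold included Igf2 (-1.64), Mirg (-1.82) and Ddc (1.43) for DKO under normexp, Ddc (1.95) and Ppp1r9a (1.84) for DKO as medians over probes, Plagl1 for G2KO (0.75) as a median over probes, Igf2 (1.13), Mirg (1.81) and Zim1 (-1.22) for G2KO under normexp, and Snrpn (-1.84) for G2KO without scaling. Changing the wild-type array, an alternative for single genes chosen after seeing the data, had a wider effect. Of 24 ratios of a knockout array, 8 stayed at least 4-fold with the other wild type and 12 with the mean of both. With the other wild type, 10 changed sign: Ndn (-1.16) and Ppp1r9a (-1.08) for DKO, and for G2KO Igf2 (-0.59), Dlk1 (-2.47), Mest (-1.08), Snrpn (1.37), Plagl1 (-1.26), Grb10 (-0.67), Slc38a4 (-0.25) and Ppp1r9a (0.78). Normexp moved the median of all genes by 0.11 for DKO, median scaling by -0.18 between the wild types, and no scaling by 0.50 for G2KO and 0.25 between the wild types. Levels on DKO near 0.01 times the 75th percentile lie close to background, so the size of the widest ratios is limited by it. No paired analysis was possible because each group has 1 array.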
